A study of Arabidopsis thaliana with 6 samples.

Results

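Late embryogenesis abundant (LEA) proteins, dehydrins included, were described here as a family of 53 loci among the 34484 identifiers of an Arabidopsis thaliana stem RNA-seq table. Members were taken by locus identifier from a list of the family, and all 53 were found. The series compared the main stem of plants titled as γVPE mutants with that of wild type plants, 3 libraries each. All 6 libraries came from stems labelled 42 days after flowering, and plants of both genotypes were kept in a greenhouse at 20 °C under a day of 16 h light and 8 h dark. γVPE is a vacuolar processing enzyme, a cysteine protease of the vacuole. The labels give neither the mutant allele nor the accession of the plants, and the series design text says that no replicates were included although the titles number 3 per genotype. The deposited columns are named WT and WT_V. The WT columns carry the wild type name, and the WT_V columns were taken as the mutant because they were the ones left. The 2 sets are called by these names below. The targeted gene did not check this assignment by being low: GAMMA-VPE (AT4G32940) stood at 328.1, 328.1 and 325.4 FPKM (fragments per kilobase of gene, scaled to the library's total) in WT_V and at 163.1, 164.4 and 162.7 FPKM in WT. Its log2 difference was 0.997 ± 0.0165 (SE, n = 3 per set), with an exact two-sided permutation p = 0.1, the smallest that 3 against 3 libraries allow.

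LEA proteins are small, very hydrophilic and mostly unfolded proteins that accumulate in the embryo as the seed dries. They are thought to protect membranes and other proteins when water is lost, and several are also made in vegetative tissue under drought, cold or abscisic acid. They fall into families named after their protein domains: LEA_1 to LEA_5, dehydrins, the seed maturation proteins (SMP), the PvLEA18 type (annotated as group 6) and the AtM type. In the embryo their genes are switched on by the B3 factors ABI3 and FUS3 and by the bZIP factor ABI5, which binds the abscisic acid response element (ABRE, core ACGTG). In cold vegetative tissue the CBF factors bind the dehydration response element (DRE, core CCGAC).

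The libraries as a whole set the frame for these genes. From the smallest steps between FPKM values, the scaling total came to 40306800 to 51012900 fragments, so that 1 fragment in a gene of 1 kb was worth 0.0196 to 0.0248 FPKM. Over the 19144 genes that averaged at least 1 FPKM across libraries, limma (a linear model over all genes) called 51.9% higher and 24.1% lower in WT_V at an adjusted p of 0.05, and the median log2 difference was 0.167. Scaling by the median of ratios gave 6775 higher and 7222 lower calls at a median of -0.0147, and quantile normalization gave 5643 and 8572 at a median of -0.0909. Differences of about that size therefore have no fixed direction. Single genes moved further with quantile normalization, ERD14 from -0.0594 to 0.378 and the fibre marker SND1 from 0.510 to 0.0408. Larger differences can thus depend on the scaling too. All 8 stem xylem and fibre markers were present in both sets, at a summed 141 to 147.5 FPKM in WT_V and 51.67 to 53.42 FPKM in WT. The 9 seed storage and oil body markers summed to 15550 to 15810 FPKM in WT_V and to 0 to 0.0353 FPKM in WT, with 8 of 9 listed at 0 in every WT library. Of 9 flower and pollen markers 7 were tested and all 7 were called higher in WT_V. AG and VGD1, among the 7, passed the filter only through WT_V. The untested AMS averaged 0.349 FPKM in WT_V against 0.472 in WT, and MS1 0.0382 against 0. The 9 markers summed to 127 to 131.9 FPKM in WT_V and 28.55 to 31.73 FPKM in WT. A change in LEA transcripts within the stem and a different content of seed, flower or xylem and fibre tissue cannot be told apart here. Fewer cells of a type cannot be told apart from less RNA per cell either.

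The family was divided by rule at a WT mean of 1 FPKM, and the WT means ran across that split without a clear gap. By this rule 32 members were low in WT and 21 were expressed there. Members just under the split were AT2G23110 at a WT mean of 0.879 FPKM and M17 (AT2G41260) at 0.833, and those just over it were M10 (AT2G41280) at 1.15 and XERO1 (AT3G50980) at 1.25 FPKM. The low-WT members summed to 757.2, 733.8 and 744.8 FPKM in the WT_V libraries and to 7.14, 6.62 and 4.85 FPKM in the WT libraries. The WT-expressed members summed to 3226, 3141 and 3120 FPKM in WT_V and 3078, 3020 and 2994 FPKM in WT. The low-WT members thus made up 18.94 to 19.27% of all LEA FPKM in WT_V and 0.162 to 0.232% in WT. Set against the 9 seed markers, their sum was 4.64 to 4.87% of the marker sum in each WT_V library.

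The split followed the protein families closely for some and not for others. Both LEA_5 and all 6 SMP members were low in WT, as were 14 of 18 LEA_4 members. All 3 LEA_2 members, 3 of 4 LEA_3 members and 7 of 10 dehydrins were WT-expressed. Of the 53 members 41 passed the minimum of 1 FPKM, and 30 of these were called higher, 9 lower and 2 neither, beside 51.9% higher and 24.1% lower among all tested genes. Of the 30, 20 were low-WT members that passed only through WT_V and had to differ, so nothing is read from the total. The LEA_2 members were all 3 called higher and the 3 tested LEA_3 members were all called lower, while LEA_4 (11 higher, 3 lower) and dehydrins (4 higher, 3 lower, 1 neither) went both ways. Of the 11 higher LEA_4 genes, AT2G03850 alone was WT-expressed.

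**Figure D1:**
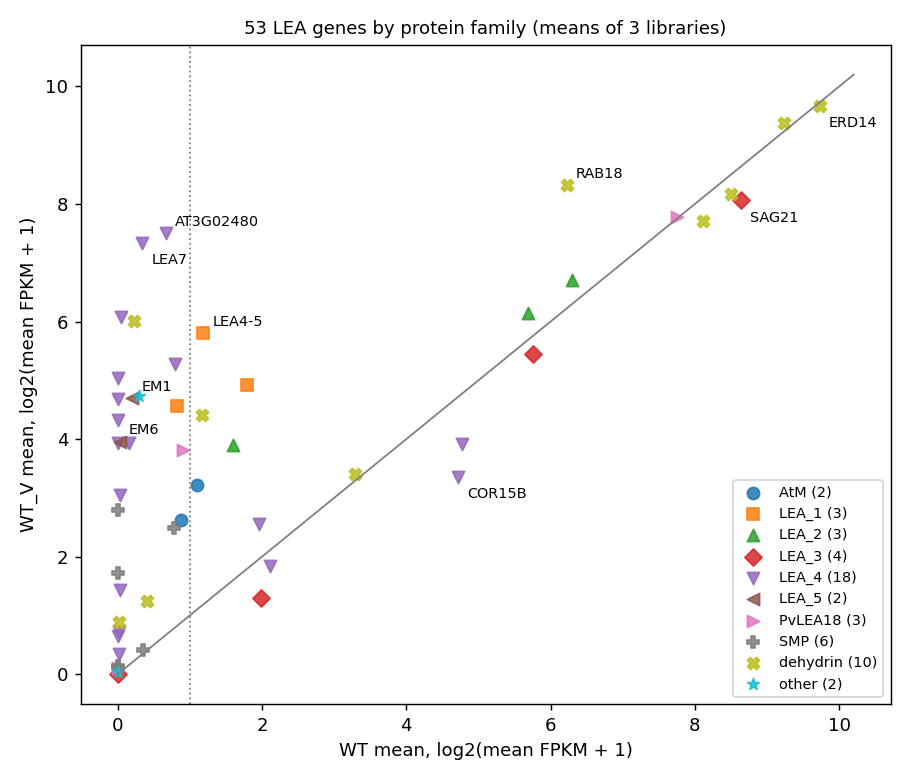
Mean level of each of the 53 LEA genes in WT (x axis) and WT_V (y axis), as log2(mean FPKM + 1) over 3 libraries, with protein family by colour and shape. The diagonal marks equal levels and the dotted line a WT mean of 1 FPKM. Low-WT members lie left of the dotted line, up to 179.9 FPKM in WT_V, and ERD14, SAG21 and COR15B lie just under or below the diagonal.

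Promoters of 6 members are printed because they stand for the patterns that follow: AT3G02480 (the most abundant low-WT gene), EM6 (the annotated ABI5 target), RAB18 (the abundant gene with the highest rise in FPKM), the COR15 pair (neighbours that were both lower) and ERD14 (the most abundant member). Each runs 5′ to 3′ on the gene's strand, from 250 bases before to 50 bases from the gene start that RefSeq annotates on TAIR10.1. Capitals mark the ABRE core ACGTG and the DRE core CCGAC on either strand (CACGT and GTCGG on the other), and the RY core CATGCA, known from binding by B3 factors, occurred in none of the 6. CACGTG holds the ABRE core on both strands and counts as 2 matches. The windows lie at chr3:511970-512269 (+ strand), chr2:16780319-16780618 (- strand), chr5:26519398-26519697 (- strand), chr2:17712281-17712580 (- strand), chr2:17710384-17710683 (- strand) and chr1:28587882-28588181 (- strand), in the order printed.
AT3G02480: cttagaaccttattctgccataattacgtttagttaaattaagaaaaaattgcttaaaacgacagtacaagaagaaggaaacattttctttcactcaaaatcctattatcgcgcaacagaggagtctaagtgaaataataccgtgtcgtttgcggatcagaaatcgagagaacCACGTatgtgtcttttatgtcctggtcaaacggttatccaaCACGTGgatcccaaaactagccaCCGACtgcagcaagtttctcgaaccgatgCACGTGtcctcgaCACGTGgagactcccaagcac
EM6: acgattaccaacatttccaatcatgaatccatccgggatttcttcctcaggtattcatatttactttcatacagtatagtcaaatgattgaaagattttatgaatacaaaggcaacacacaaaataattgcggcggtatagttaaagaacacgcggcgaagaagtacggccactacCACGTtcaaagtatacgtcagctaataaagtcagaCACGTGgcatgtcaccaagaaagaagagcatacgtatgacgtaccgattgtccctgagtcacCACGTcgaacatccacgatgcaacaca
RAB18: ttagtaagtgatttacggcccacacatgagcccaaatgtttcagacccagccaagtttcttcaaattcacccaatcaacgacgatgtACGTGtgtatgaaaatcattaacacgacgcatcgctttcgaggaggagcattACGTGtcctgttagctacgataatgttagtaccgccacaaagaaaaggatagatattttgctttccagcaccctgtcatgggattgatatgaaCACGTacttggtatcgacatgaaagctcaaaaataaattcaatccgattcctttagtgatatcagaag
COR15A: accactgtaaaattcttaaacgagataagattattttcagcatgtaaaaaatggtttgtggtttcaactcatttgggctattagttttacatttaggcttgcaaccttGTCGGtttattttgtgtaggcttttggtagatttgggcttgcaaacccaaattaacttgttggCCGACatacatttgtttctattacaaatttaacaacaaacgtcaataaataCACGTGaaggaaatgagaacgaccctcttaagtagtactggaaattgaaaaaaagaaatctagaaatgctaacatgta
COR15B: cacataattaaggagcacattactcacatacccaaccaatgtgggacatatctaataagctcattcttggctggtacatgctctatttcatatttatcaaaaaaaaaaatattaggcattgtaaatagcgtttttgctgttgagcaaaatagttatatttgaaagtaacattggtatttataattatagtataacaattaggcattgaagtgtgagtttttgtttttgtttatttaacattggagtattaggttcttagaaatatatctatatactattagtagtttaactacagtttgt
ERD14: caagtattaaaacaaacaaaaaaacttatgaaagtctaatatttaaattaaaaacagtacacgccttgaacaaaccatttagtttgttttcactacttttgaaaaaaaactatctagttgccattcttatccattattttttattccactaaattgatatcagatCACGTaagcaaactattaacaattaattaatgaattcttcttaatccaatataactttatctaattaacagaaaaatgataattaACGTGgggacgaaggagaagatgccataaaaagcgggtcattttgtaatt

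AT3G02480 held 7 ABRE core matches and 1 DRE core, EM6 4 and RAB18 3 ABRE core matches. COR15A held 1 CACGTG, counted as 2 matches, and 2 DRE cores, while COR15B held none of the searched letters and ERD14 held 2 ABRE core matches.

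Among the low-WT members, 20 of 32 passed the minimum of 1 FPKM, and all 20 were called higher in WT_V. They passed it through their WT_V level alone and so had to differ, as 96.5% of the 1542 tested genes under 1 FPKM in WT did. The following values are therefore a description of which LEA genes were present in WT_V and at what level. The 9 seed markers also passed the filter only through WT_V, so their calls as higher were fixed too. In the WT_V libraries they made up 2.35 to 2.39% of all FPKM, and their part in the low-WT values was not tested.

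The LEA_4 family held the most abundant of them. These proteins are predicted to fold into amphipathic helices on drying. AT3G02480 measured 190.8, 168.7 and 180.3 FPKM in WT_V and 0.902, 0.470 and 0.399 FPKM in WT, a ratio of means of 305 (log2 difference 6.84 ± 0.10). LEA7 (AT1G52690) measured 162.3, 159.2 and 161.3 FPKM in WT_V against 0.235, 0.229 and 0.346 in WT. Both lay far above the median low-WT level of 6.62 FPKM in WT_V. AT3G15670 stood at 66.49, 66.21 and 66.21 FPKM in WT_V, and in WT it was listed at 0 in 2 libraries and at 0.0956 FPKM in the other. AT3G17520 stood at 37.89, 37.27 and 38.28 FPKM against 0.896, 0.828 and 0.459 FPKM, a ratio of 52.0. For AT3G17520 the WT level came from 46, 49 and 24 recovered fragments, so the gene was detected in every WT library.

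A further group of LEA_4 genes was listed at 0 in every WT library. AT4G21020 measured 32.71, 30.66 and 31.99 FPKM in WT_V, from 1775, 1722 and 1669 fragments. AT2G42560, with the longest coding sequence of the family (1908 bases), measured 23.91, 25.00 and 25.24 FPKM, from 2562, 2772 and 2600 fragments. AT5G44310 measured 19.79, 18.64 and 18.84 FPKM. AT3G53040 measured 14.37, 15.41 and 13.15 FPKM. No fold can be given for these 4 genes. Their replicates in WT_V differed by little, with an SD of 0.617 to 1.13 FPKM. Also near 0 in WT were ECP63 (AT2G36640), named after an embryonic cell protein, at 14.70, 14.23 and 14.16 FPKM against 0.0602, 0.144 and 0.148, and AT1G72100 at 6.28, 7.93 and 7.62 FPKM against 0, 0.0637 and 0.

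The LEA_5 pair encodes the Em proteins, the most hydrophilic of the family and typical of the late, drying embryo. EM1 (AT3G51810) measured 25.22, 25.84 and 23.83 FPKM in WT_V and 0.146, 0.303 and 0 FPKM in WT. EM6 (AT2G40170, symbol GEA6 in RefSeq), annotated as activated by direct binding of ABI5, measured 13.98, 15.14 and 14.51 FPKM in WT_V and 0.0345, 0.0299 and 0 FPKM in WT. The SD over WT_V libraries was 1.03 FPKM for EM1 and 0.580 for EM6, and EM1 stood above EM6 in each of them. Both were well below the storage protein gene CRC (AT4G28520), which stood at 3329, 3413 and 3408 FPKM in WT_V.

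The SMP genes were present at lower levels. ECP31 (AT3G22500) measured 5.93, 6.60 and 5.33 FPKM in WT_V, and its neighbour AT3G22490 2.01, 2.34 and 2.50 FPKM. Neither had any signal in the WT libraries, where the pair was listed at 0. RAB28 (AT1G03120), which acts in ion balance in the late embryo, measured 3.62, 5.06 and 5.12 FPKM against 0.699, 0.741 and 0.725 FPKM in WT, a ratio of 6.38. The other 3 SMP genes, AT5G27980, AT5G53260 and AT5G53270, averaged at most 0.334 FPKM in either set and were not tested. AT5G27980 was detected in all 6 libraries, at 12 to 18 fragments in WT_V and 7 to 12 in WT, and AT5G53260 and AT5G53270 were listed at 0 in WT.

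The remaining low-WT members came from 5 groups. The dehydrin gene AT2G21490 measured 66.27, 62.06 and 62.87 FPKM in WT_V against 0.201, 0.200 and 0.113 FPKM. LEA18 (AT2G35300, LEA_1) measured 23.68, 22.32 and 21.90 FPKM against 1.02, 0.917 and 0.385, a ratio of 29.3. AT5G66780, annotated as a LEA protein but in none of the named families, measured 23.70, 26.29 and 27.14 FPKM against 0.462, 0.0860 and 0.130 FPKM. The PvLEA18-type gene AT2G23110 measured 12.39, 13.01 and 13.78 FPKM against 0.642, 1.18 and 0.817 FPKM, a ratio of 14.9. M17, a glycine-rich AtM protein gene of late embryogenesis, measured 6.15, 4.59 and 4.82 FPKM against 0.810, 0.847 and 0.843 FPKM, a ratio of 6.23. Unlike the LEA_4 genes at 0, these had measurable WT levels, and M17 and RAB28 had the smallest ratios of the 20.

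The 12 low-WT members that were not tested spanned 0 to 1.70 FPKM in WT_V. AT4G36600 had the highest mean, 1.70 ± 0.335 FPKM (SD, n = 3) against 0.0254 ± 0.0440, followed by the dehydrin gene AT4G38410 at 1.38 ± 0.309 against 0.326 ± 0.191 FPKM. AT4G39130, AT2G18340, AT2G03740 and AT4G13230 averaged 0.265 to 0.854 FPKM in WT_V and at most 0.0166 FPKM in WT. Without the filter, limma called these 6 genes higher and did not call AT2G33690, AT5G27980, AT5G53260, AT5G53270 and AT5G60530. AT3G53770 was listed at 0 in all 6 libraries.

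**Figure D2:**
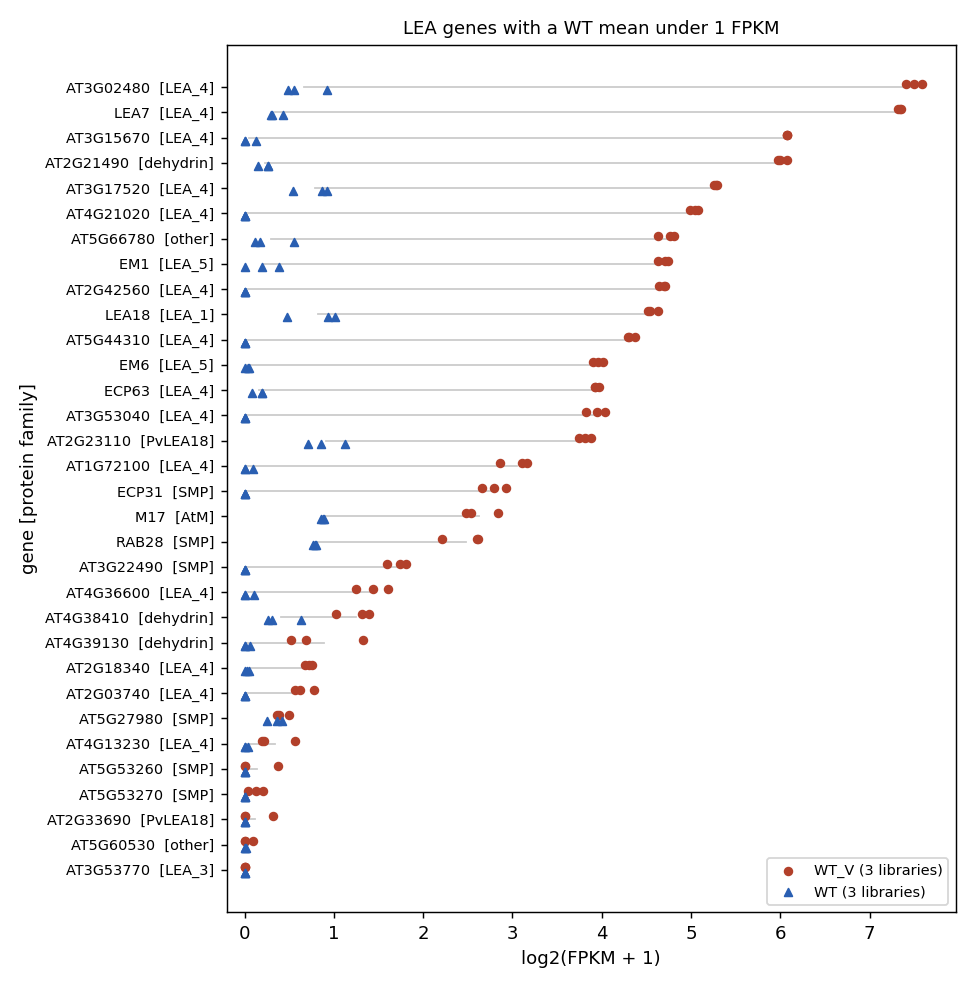
Level of each of the 32 LEA genes with a WT mean under 1 FPKM, as log2(FPKM + 1), with a point for each of the 3 WT_V (circles) and 3 WT (triangles) libraries and a line between the means. Genes are ordered by their WT_V mean, from 0 to 179.9 FPKM. In the upper 20 genes the sets lie apart, but these genes passed the minimum of 1 FPKM only through WT_V and had to differ.

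The WT-expressed members did not move as a block. All 21 were tested, and 10 were called higher and 9 lower in WT_V, against 48.0% called higher and 26.2% lower among the 17602 tested genes with a WT mean of 1 FPKM or more. Their median log2 difference was 0.102, beside 0.126 for those genes. Median-of-ratios scaling moved it to -0.0784 and quantile normalization to 0.231, so its sign is not fixed. With the split at 2 FPKM instead, 7 members were called higher and 9 lower. That split leaves out M10, XERO1 and LEA4-5, at WT means of 1.15 to 1.27 FPKM. Ratios of WT_V to WT means of single genes ran from 0.367 (COR15B) to 43.0 (LEA4-5).

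Among dehydrins, which bind membranes and metal ions and carry lysine-rich segments, RAB18 (AT5G66400) changed most in level. This abscisic acid and drought-induced gene measured 325.3, 323.6 and 309.8 FPKM in WT_V and 75.04, 75.25 and 70.82 FPKM in WT. The sets lay far apart, at a ratio of 4.34 and a log2 difference of 2.10 ± 0.03 (limma, adjusted p = 5.67e-13). XERO1 measured 18.42, 22.21 and 19.98 FPKM against 1.21, 1.66 and 0.887 FPKM, a ratio of 16.1 (adjusted p = 1.17e-09). Its neighbour LTI30 (AT3G50970), a cold-induced dehydrin gene, measured 10.07, 8.50 and 10.06 FPKM against 9.70, 8.22 and 8.53 FPKM. The LTI30 sets overlapped and the gene was not called (adjusted p = 0.265, log2 difference 0.10 ± 0.08). Its sign turned with median-of-ratios scaling (-0.0784), and quantile normalization called it lower (-0.224).

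COR47 and ERD10, acidic dehydrin genes of the cold response, were lower. COR47 (AT1G20440) measured 291.6, 283.3 and 281.6 FPKM in WT_V and 368.7, 355.7 and 357.8 FPKM in WT (log2 difference -0.34 ± 0.02, adjusted p = 7.73e-08). ERD10 (AT1G20450), which lies next to it, measured 211.9, 207.4 and 202.5 FPKM against 283.0, 270.6 and 275.0 FPKM (log2 difference -0.41 ± 0.02, adjusted p = 4.26e-08). The ratios of means were 0.791 and 0.750, and both genes were lower under each of the 3 scalings. Their sets did not overlap, but the share of all genes without overlap was not computed, so nothing is read from that.

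The most abundant LEA genes of the stem were dehydrins that hardly differed. ERD14 (AT1G76180), an early dehydration-response gene, measured 825.6, 806.8 and 809.2 FPKM in WT_V and 860.8, 839.0 and 844.7 FPKM in WT, and was called lower (log2 difference -0.06 ± 0.01, adjusted p = 0.00404). AT1G54410 (HIRD11, a metal-binding dehydrin) measured 681.0, 669.9 and 645.4 FPKM against 615.3, 596.4 and 590.3 FPKM, and was called higher (log2 difference 0.15 ± 0.02, adjusted p = 0.000113). Neither direction is fixed: ERD14 was called higher with quantile normalization (0.378), and AT1G54410 was called lower with median-of-ratios scaling (-0.0528). Together the dehydrins summed to 2343 to 2432 FPKM in WT_V and 2147 to 2215 in WT. With the low-WT members added in WT_V, they made up 60.64 to 61.6% of LEA FPKM in WT_V and 70.94 to 71.78% in WT.

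The COR15 genes, LEA_4 proteins of the chloroplast stroma that protect membranes in frost, were lower in WT_V. COR15B (AT2G42530) measured 9.98, 8.43 and 9.41 FPKM in WT_V and 25.84, 24.77 and 25.11 FPKM in WT (log2 difference -1.36 ± 0.06, adjusted p = 5.33e-09). COR15A (AT2G42540) measured 14.52, 14.28 and 13.77 FPKM against 26.39, 27.02 and 25.55 FPKM (log2 difference -0.85 ± 0.04, adjusted p = 1.72e-08). The WT levels of the pair were close, and in WT_V COR15B stood below COR15A in each library. The exons of COR15B overlap those of AT2G42520 on the other strand over 468 bases, 29.6% of its exon length. AT2G42520 averaged 20.7 FPKM in WT_V and 16.3 in WT. As the strand setting is not given, the effect of this overlap on the COR15B values was not tested.

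The LEA_3 genes were also lower. SAG21 (AT4G02380), a mitochondrial protein gene of senescence and oxidative stress, measured 270.3, 262.0 and 267.5 FPKM against 397.7, 408.3 and 385.5 FPKM (log2 difference -0.57 ± 0.02, adjusted p = 2.32e-09). DI21 (AT4G15910), known from drought, measured 45.29, 42.39 and 40.94 FPKM against 51.08, 54.62 and 53.06 FPKM (log2 difference -0.30 ± 0.04, adjusted p = 6.23e-05). LEA3 (AT1G02820) averaged 1.46 ± 0.299 FPKM against 2.96 ± 0.508 FPKM (SD, n = 3, adjusted p = 0.000415), a ratio of 0.493 beside 0.539 for COR15A. None of these sets overlapped, but the share of all genes without overlap was not computed, so nothing is read from that. The decrease of SAG21 was the greatest of the 3 in FPKM. UNE15 (AT4G13560, LEA_4), known from a mutant with unfertilized embryo sacs, averaged 2.59 ± 0.0953 against 3.33 ± 0.310 FPKM (adjusted p = 0.014), a call that ended without WT replicate 1 (adjusted p = 0.0524).

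The 2 WT-expressed LEA_1 genes rose from a low WT level. These proteins belong to a group that is made in dry seeds and under water deficit. LEA4-5 (AT5G06760) measured 56.07, 53.38 and 54.57 FPKM in WT_V and 1.02, 1.26 and 1.54 FPKM in WT, a ratio of 43.0 (log2 difference 4.62 ± 0.08, adjusted p = 3.05e-12). LEA4-1 (AT1G32560) measured 30.26, 28.75 and 28.99 FPKM against 2.37, 3.03 and 2.04 FPKM, a ratio of 11.8 (adjusted p = 1.95e-10). Both rose, and their WT_V values exceeded every WT value by far. LEA18, the other member of this family, passed the filter only through WT_V and is not counted beside them.

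The LEA_2 genes encode folded proteins, atypical of the family, and rose less. LEA14 (AT1G01470), induced by wounding and light stress, measured 68.67, 70.91 and 70.51 FPKM against 51.68, 51.09 and 48.71 FPKM (log2 difference 0.46 ± 0.03, adjusted p = 1.68e-07). AT2G44060 measured 105.7, 102.3 and 102.3 FPKM against 78.53, 76.76 and 77.96 FPKM (log2 difference 0.41 ± 0.02, adjusted p = 7.36e-08). AT2G46140 was the member of this family that differed most, at 13.89, 13.90 and 14.07 FPKM against 2.25, 2.27 and 1.60 FPKM, a ratio of 6.84 (adjusted p = 2.56e-09).

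Of the last WT-expressed members, M10 (AT2G41280), a hydrophilic protein gene of embryogenesis, measured 7.82, 9.12 and 8.06 FPKM against 1.15, 1.64 and 0.648 FPKM (adjusted p = 2.31e-07). The LEA_4 gene AT2G03850 averaged 4.86 ± 0.952 against 2.90 ± 0.560 FPKM (SD, n = 3, adjusted p = 0.00238), a call that ended with quantile normalization (adjusted p = 0.901). AT2G23120, an abundant PvLEA18-type gene, measured 229.9, 205.8 and 221.9 FPKM against 216.0, 213.6 and 215.5 FPKM. Its sets overlapped and it was not called (adjusted p = 0.497, log2 difference 0.03 ± 0.03). It was called lower with median-of-ratios scaling and higher with quantile normalization or without WT_V replicate 2 (adjusted p = 0.0203).

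**Figure D3:**
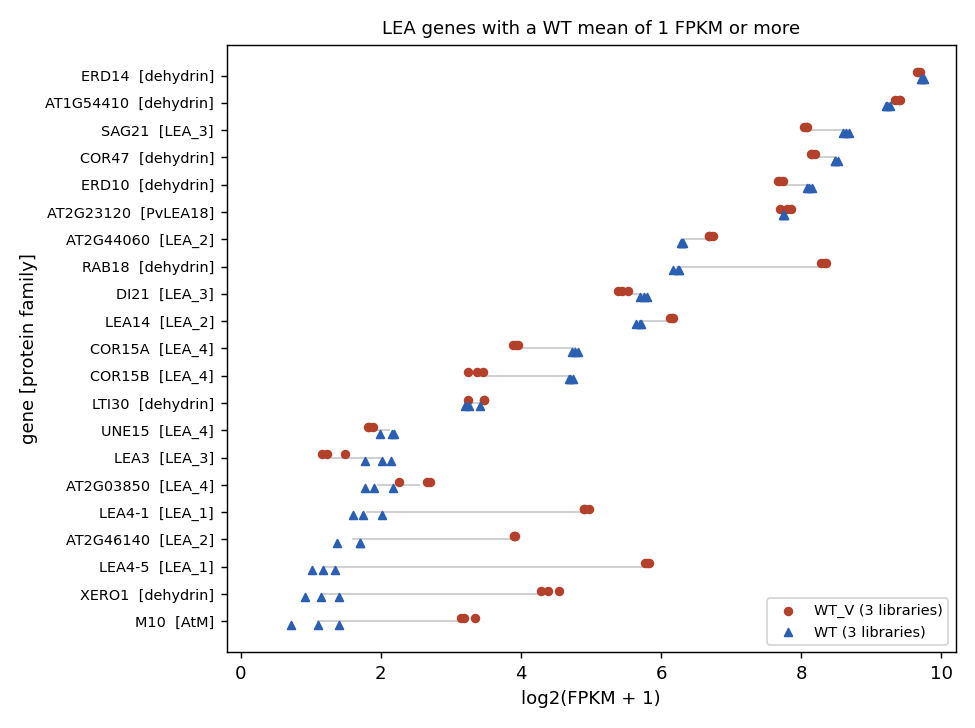
Level of each of the 21 LEA genes with a WT mean of 1 FPKM or more, as log2(FPKM + 1), with a point for each WT_V (circles) and WT (triangles) library and a line between the means, ordered by WT mean. The most abundant genes, ERD14 and AT1G54410, nearly coincide, and the longest lines belong to genes under 3 FPKM in WT, such as LEA4-5, LEA4-1 and XERO1.

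**Figure D4:**
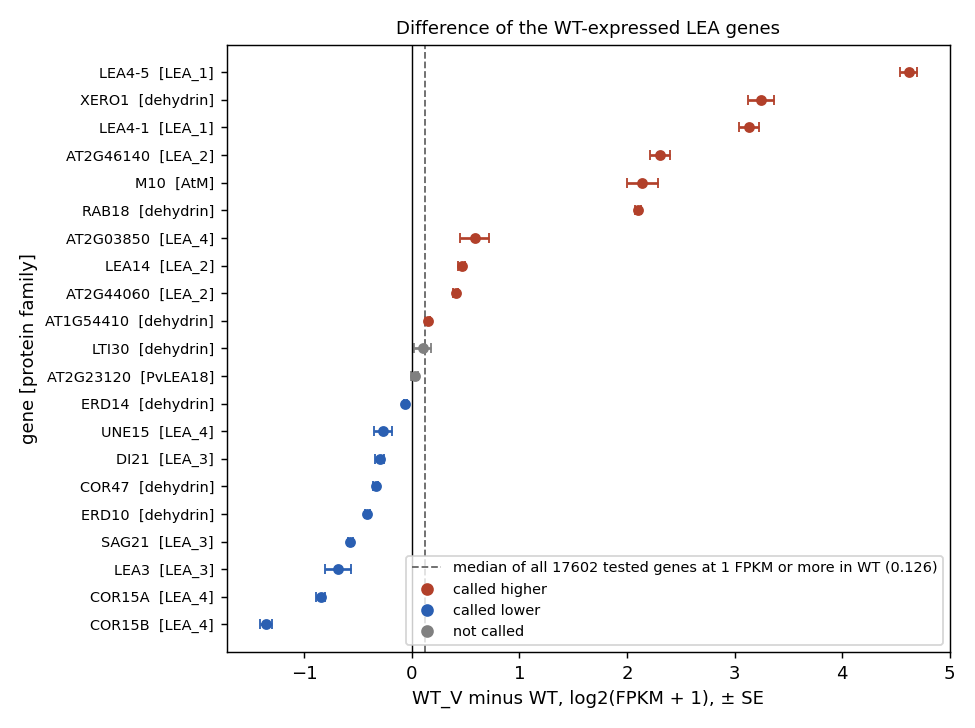
Difference between WT_V and WT for the same 21 genes on the log2(FPKM + 1) scale, with the SE of the limma fit as bars and the call by colour. The dashed line is the median of all 17602 tested genes at 1 FPKM or more in WT (0.126). The genes run from COR15B at -1.36 to LEA4-5 at 4.62.

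Of the 7 pairs of LEA genes with no other protein-coding gene between them, 3 had both members expressed in WT. COR47 with ERD10 and COR15B with COR15A were lower, and XERO1 was higher while its neighbour LTI30 had overlapping sets. In the pairs of M17 with M10, AT3G22490 with ECP31 and AT2G23110 with AT2G23120, at least 1 member passed the filter only through WT_V. AT5G53260 and AT5G53270 were not tested. The longest run of identical bases shared by transcripts of any tested members was 38 bases, between AT3G22490 and ECP31.

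Of the regulators of LEA genes, the embryo factors ABI3 and LEC1 were listed at 0 in all WT libraries and measured 6.93, 7.81 and 8.21 FPKM and 8.26, 8.49 and 8.44 FPKM in WT_V. FUS3 averaged 11.0 FPKM in WT_V against 0.405 in WT, and bZIP67, a seed bZIP factor, 6.23 against 0.102 FPKM. These 4 were under 1 FPKM in WT and passed the filter only through WT_V, so that they had to be called higher. ABI5 was expressed in both sets, at 9.31, 9.83 and 9.87 FPKM in WT_V and 6.68, 4.83 and 5.16 FPKM in WT (log2 difference 0.71 ± 0.10, limma, adjusted p = 4.95e-05). EEL, a bZIP factor that binds the same EM promoter element as ABI5, averaged 29.9 against 12.8 FPKM (adjusted p = 1.39e-09).

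The regulators of the vegetative response went both ways. ABF3, a bZIP factor of drought and abscisic acid response, measured 41.87, 42.16 and 40.47 FPKM in WT_V and 59.55, 58.08 and 60.83 FPKM in WT (log2 difference -0.51 ± 0.03, adjusted p = 8.30e-08). CBF2 measured 9.14, 10.46 and 9.37 FPKM against 16.76, 16.89 and 16.77 FPKM (log2 difference -0.74 ± 0.06, adjusted p = 5.06e-07). CBF1 and CBF3 were also called lower, at log2 differences of -0.63 and -0.55, and all 3 CBF genes were lower under each scaling. They are near-identical neighbours, so the values of each are uncertain. The bZIP genes ABF1, ABF2 and ABF4 and the kinase genes SNRK2.2 and SNRK2.3 were lower too. DREB2A, a DRE-binding factor of the drought response, was higher at 25.7 against 18.4 FPKM, as was AREB3 at 20.5 against 17.5 FPKM, a call that ended under both other scalings. DREB2B and SNRK2.6 were not called, but quantile normalization called DREB2B lower (-0.41, adjusted p = 0.0178) and median-of-ratios scaling called SNRK2.6 lower (-0.14, adjusted p = 0.0213). In all, 19 of 22 regulators were tested, 8 were called higher, 9 lower and 2 neither, at a median log2 difference of 0.05, beside 51.9% higher, 24.1% lower and 0.167 for all tested genes. The count of 8 includes the 4 genes whose call the filter fixed.

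Other dehydration and cold genes also split. Of 15 genes 14 were tested, 9 were called higher and 5 lower, at a median log2 difference of 1.09, beside 51.9% higher, 24.1% lower and 0.167 for all tested genes. PER1 and KIN1, among the 9, passed the filter only through WT_V. The call of P5CS1, among the 5, ended with quantile normalization (log2 difference 0.00675, limma, adjusted p = 0.779). The seed peroxiredoxin gene PER1 measured 84.88, 80.19 and 84.03 FPKM in WT_V and was listed at 0 in WT. RD29B, an abscisic acid-responsive gene, measured 22.86, 21.50 and 22.69 FPKM against 4.09, 4.17 and 3.84 FPKM (adjusted p = 6.07e-11). The cold-induced gene KIN2 measured 133.3, 125.9 and 119.2 FPKM against 335.6, 329.4 and 320.2 FPKM (log2 difference -1.38 ± 0.04, adjusted p = 7.55e-11). Its neighbour KIN1 is a near-identical copy and was called higher at 6.75 against 0.629 FPKM, so the values of both are uncertain. COR413IM1, a cold-regulated gene of the chloroplast inner membrane, averaged 37.2 against 46.1 FPKM (adjusted p = 0.000279). RD29A, which carries both elements in its known promoter, was higher at 16.9 against 11.5 FPKM (adjusted p = 1.11e-05).

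Over the whole family, the ABRE core stood in the window of 38 of 53 members (71.7%), the DRE core in 23 (43.4%) and the RY core in 10 (18.9%). Among all 27443 protein-coding promoters of the same length these shares were 26.7%, 15.0% and 9.72%. The ABRE core was in 18 of the 20 tested low-WT genes and in 9 of the 10 WT-expressed genes called higher. It was in 3 of the 9 called lower (33.3%), near the 26.7% of all promoters. ERD14, among these 3, and AT1G54410, among the 9 of 10, changed direction under another scaling. Of those 9 lower genes, 5 (LEA3, ERD10, SAG21, UNE15 and COR15B) held none of the 3 motifs. The share of all promoters with none was not computed, so nothing is read from that count. Windows were set by the annotated gene start, and in some genes exon length far exceeded coding length. These lengths were 4151 and 330 bases for UNE15, 1584 and 426 for COR15B and, among the higher genes, 1113 and 297 for AT1G54410. The effect of such gene models on the shares was not tested. These matches are a description of the annotated windows and not of binding sites, and the build and annotation behind the FPKM values are not known here.

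**Figure D5:**
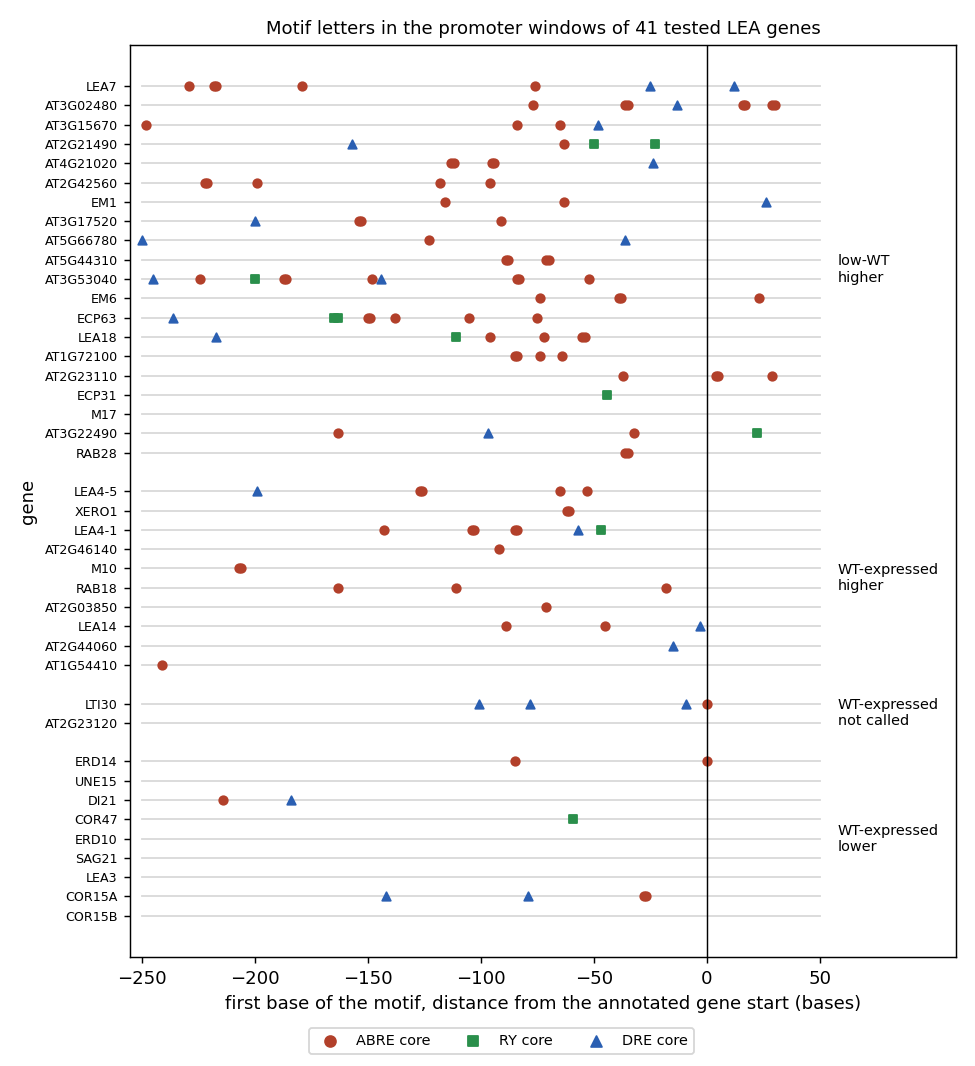
Position of each match to the ABRE core (circles), RY core (squares) and DRE core (triangles) relative to the annotated gene start, for the 41 tested LEA genes grouped by class and call. Each row is a gene with its window from -250 to 50 bases. Circles are on 18 of 20 rows of the low-WT group and on 3 of 9 rows of the WT-expressed group called lower.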

How the data were processed

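RNA of 6 mature stem libraries was sequenced by the submitters. The authors deposited 1 table of FPKM values, and per the submitters' processing notes the tools were HTSeq 0.6.1, TopHat2 2.0.12 and Bowtie2 2.2.3. No genome build, annotation or strand setting is given in the sources used here. Multiplied by exon length in RefSeq TAIR10.1, 99.03 to 99.3% of the low values of single-transcript genes were whole multiples of 1 step per library, within 0.02 fragments, which gave the scaling totals. Fragments are quoted for single-transcript genes only.

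Genes averaging at least 1 FPKM were tested across the whole table in R 4.3.3 with limma 3.58.1 on log2(FPKM + 1) (intensity trend, WT_V minus WT, Benjamini-Hochberg adjustment, called at 0.05). This scale understates changes of low genes. Ratios are of mean FPKM. The fit was tested on simulated data. Nothing says that libraries came from separate plants, so the spread behind each p-value is that of these libraries and may be technical.

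Members, the 5 comparison lists and motifs were chosen with earlier results of these data known. Values per library are given for members at 5 FPKM or more in either set, and beyond that rule for AT3G22490 and RAB28, chosen after their values were seen. Other dehydration genes, regulators and promoters were picked for the text after their values were seen. Symbols, overlaps and promoters came from RefSeq TAIR10.1, matched by locus for all 53 members. Within a set, library pairs differed by 3.24 to 3.50 times the sampling noise, so none was counted as a duplicate. The fit was repeated with quantile normalization, with median-of-ratios scaling, with pseudocounts of 0.1 and 5, at a filter of 5 FPKM and without any, with a replicate block, with each library left out, and with a split of members at 0.5 or 2 FPKM. Figures were drawn with matplotlib 3.10.9.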

Additional observations from a re-analysis of the deposited data

How the results depend on the processing

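The counts of members called higher (30) and lower (9) and of all genes called (14550) stayed within 1.5 times under every pseudocount, filter, scaling and left-out library. Leaving out each library gave 29 to 31 members higher and 8 or 9 lower. Of the 30, 20 were low-WT members that passed only through WT_V, so nothing is read from how steady the higher count was. With a split at 0.5 FPKM, 16 WT-expressed members were higher and the median of the class was 0.464. The members that this split added passed the filter only through WT_V, so their calls as higher were fixed. A split at 2 FPKM gave 7 higher and 9 lower at a median of -0.0167. Median-of-ratios scaling gave a median of -0.0784, and quantile normalization gave 0.231. The splits changed which members were counted, and the cause of the shifts with scaling was not tested. Reversed differences were those of AT1G54410 (-0.0528), AT2G23120 (-0.173) and LTI30 (-0.0784) with median-of-ratios scaling, of ERD14 (0.378) and LTI30 (-0.224) with quantile normalization, and of AT2G23120 without a WT_V library, where its value ran from -0.00893 to 0.0707. No other tested member changed direction.

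Same-numbered libraries of the sets did not deviate together (correlations -0.0157, -0.0156 and 0.0141), so the numbers were not taken as pairs. With a replicate block 14477 genes were called, 30 members higher and 9 lower, 10 and 9 of them WT-expressed, at an unchanged median of 0.102 and with GAMMA-VPE at 0.997. At about 0.02 FPKM per fragment and kb, depth limits members under 1 FPKM.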

Other observations

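The LEA genes were short and simply built. Coding sequences of the 53 members ran from 207 to 1908 bases (median 531), and 44 of 53 had 1 or 2 exons in their longest transcript. The 20 tested low-WT members had a median coding length of 724.5 bases and a median transcript GC content of 45.5%. The 9 WT-expressed members called lower had medians of 426 bases and 38.2%. Members above 0 FPKM numbered 50 in each WT_V library and 34 to 39 in the WT libraries, and members at 1 FPKM or more 43 or 44 in WT_V and 19 to 22 in WT. The same counts over all identifiers were not computed, so nothing is read from these. Scaling totals were also higher in WT_V (47386000 to 51012900 fragments) than in WT (40306800 to 46467200).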
